A study of Mus musculus with 33 samples.

Results

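The subject is the genes that encode the voltage-gated sodium and calcium channels and the HCN channels of neurons. They were chosen by name: protein-coding genes called Scn, Cacna1, Cacna2d, Cacnb or Hcn with the number and letter of a channel subunit. The rule found 36 of the 54752 genes in the forebrain tables, and the same 36 in the hippocampus tables. They are 10 sodium channel pore genes, 4 sodium channel beta subunit genes, 10 calcium channel pore genes, 4 alpha2delta genes, 4 calcium channel beta subunit genes and 4 HCN genes.

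The study compared mice that differ in n-Tr20, a transfer RNA gene of neurons, and its title names synaptic transmission and seizure susceptibility. All mice were 8 weeks old. Forebrain RNA came from 5 groups of 4 samples: C57BL/6J mice with both n-Tr20 copies deleted (B6J n-Tr20 -/-), C57BL/6J mice, which carry a hypomorphic n-Tr20 (B6J), C57BL/6J mice with a transgene of the C57BL/6NJ n-Tr20 (B6J Tg), C57BL/6NJ mice with both copies deleted (B6N n-Tr20 -/-) and C57BL/6NJ mice with wild-type n-Tr20 (B6N). B6J and B6N are substrains, so a B6J to B6N difference holds every other difference between the substrains as well. The B6J n-Tr20 -/- libraries form batch 2 and the other 16 first libraries batch 1, and transgenic sample 4 was sequenced in both. Hippocampus poly(A) RNA and ribosome footprints came from 3 B6N n-Tr20 -/- and 3 B6N samples each. For the hippocampus RNA, the library protocol names the strain B6JN where the sample labels give C57BL/6NJ. The abundance of n-Tr20 itself was not analysed here.

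Sodium channel pore subunits carry the inward current of the action potential, and their beta subunits set gating and surface level. Calcium channel pore subunits open on depolarisation and couple it to transmitter release, firing pattern and gene expression, while alpha2delta and beta subunits bring them to the membrane. HCN channels open on hyperpolarisation, pass a mixed cation current and set resting potential and rhythm. In thalamic relay cells, Hcn2 and the T-type calcium channel Cacna1g together shape burst firing.

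Forebrain libraries held 14.7 to 38.5 M estimated counts, hippocampus RNA libraries 35.8 to 60.4 M counts and footprint libraries 7.6 to 17.9 M counts. Values for each library below are CPM, edgeR's read counts per M of scaled library size (M, mega), unless TPM, the deposited transcripts per M, are named. Differences are log2 fold changes with their standard error (SE) from edgeR's quasi-likelihood test, and a gene was called at a Benjamini-Hochberg adjusted p under 0.05 over all genes of the fit. In forebrain and in hippocampus RNA, 33 of the 36 genes passed the filter on low counts (Scn4a, Scn10a and Scn11a did not). In footprints 31 passed, Cacna1f and Cacna1s falling out too. Beyond their numbers, the labels do not state how the samples of a group were taken, so p-values measure the spread between these samples. In bulk tissue, fewer cells of a type and less RNA per cell cannot be told apart.

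Per length, the 36 genes covered a wide range in forebrain. Scn2a, the sodium channel of the axon initial segment, was highest with a median of 62.5 TPM over the 21 libraries (48.1 to 88.1 TPM). Cacnb4, a calcium channel beta subunit whose loss gives the lethargic mouse, had 41.4 TPM, Cacna2d1, a target of gabapentin, 33.5 TPM, and Scn8a, the sodium channel of nodes and initial segments, 33.5 TPM. The ranges of the last pair overlap (25.6 to 48.7 TPM for Cacna2d1, 27.6 to 45.2 TPM for Scn8a), so their order is not set beyond the spread of the libraries. The sodium beta subunit genes Scn2b, Scn3b and Scn4b had 28.5, 15.9 and 14.4 TPM. Cacna1e, the R-type calcium channel, led the calcium pore genes at 30.7 TPM, ahead of the P/Q-type gene Cacna1a at 18.1 TPM and the N-type gene Cacna1b at 18.0 TPM.

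The HCN genes and the T-type calcium channel genes were lower. Hcn2 had 6.77 TPM (6.00 to 10.02 TPM) and Cacna1g 6.27 TPM (4.91 to 8.52 TPM), with ranges that overlap. The other T-type genes had 4.46 TPM (Cacna1i) and 3.88 TPM (Cacna1h). Hcn3 reached 1.27 TPM and Hcn4, the pacemaker channel of the heart, 0.288 TPM. Channels known mainly from other tissues were close to 0: the skeletal muscle genes Cacna1s and Scn4a had 0.0990 and 0.0205 TPM, and the sensory neuron genes Scn10a and Scn11a 0.0234 and 0.0235 TPM. The retinal calcium channel Cacna1f had 0.353 TPM over all its transcripts. Protein-coding ones made up 27.6% (B6N n-Tr20 -/-) to 62.2% (B6J) of its estimated counts by group mean.

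**Figure D1:**
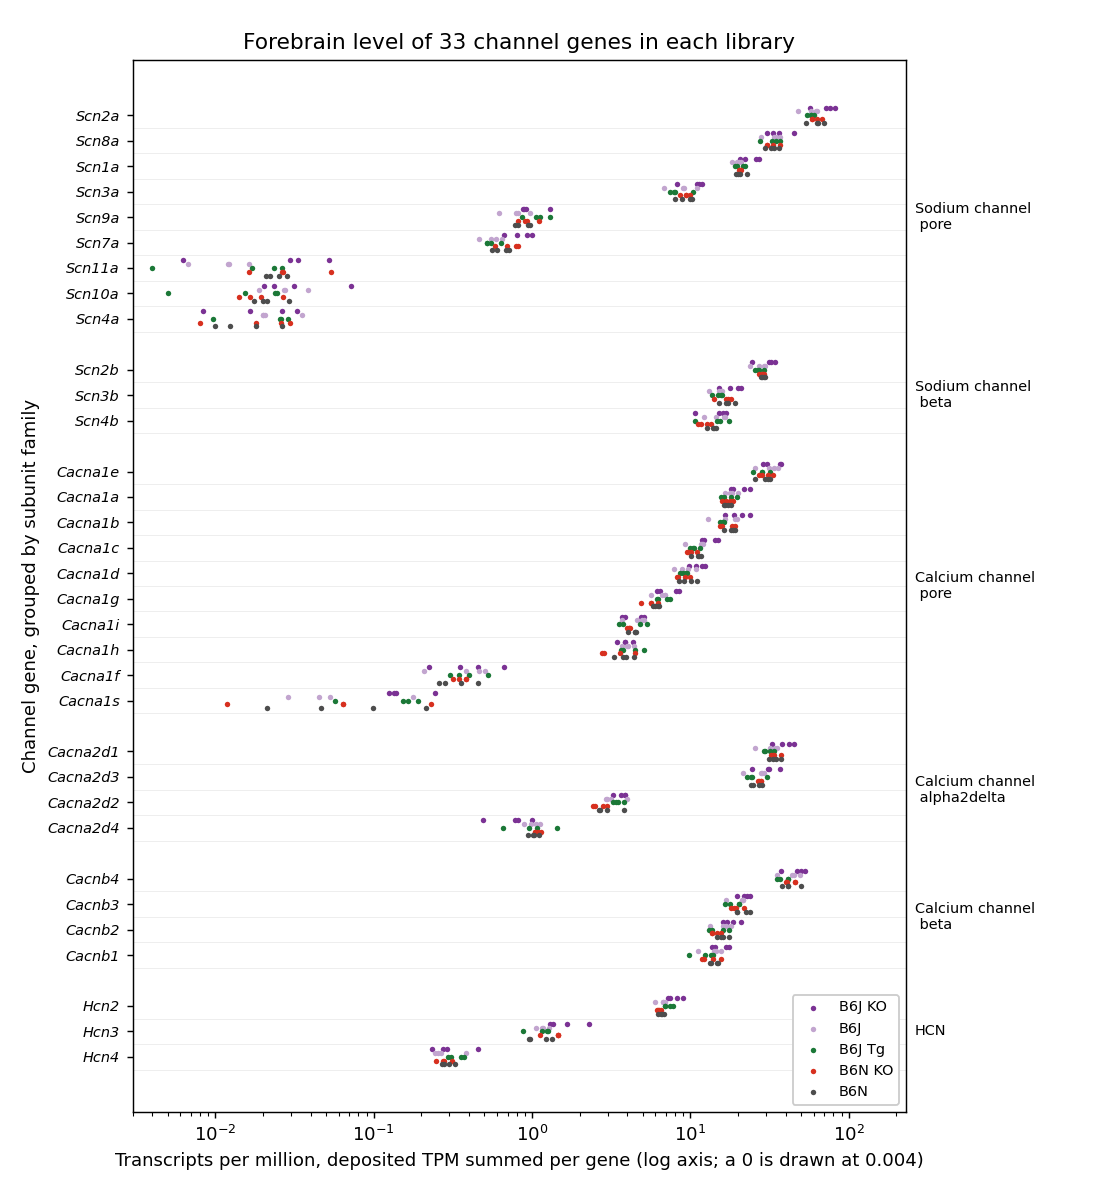
Forebrain TPM, summed per gene, on a log axis for 33 channel genes, grouped by subunit family; each point is 1 of the 20 sample libraries, and the batch 2 library of transgenic sample 4 is not drawn. Points of the 5 groups lie over each other for nearly every gene, while genes of 1 family lie far apart, as with Scn2a (median 62.5 TPM) and Scn4a (0.0205 TPM).

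Several of the genes are neighbours. Scn3a, Scn2a, Scn1a, Scn9a and Scn7a lie within 1.33 Mb of chromosome 2 (chr2:65457118-66784910, GRCm38). These neighbours differed widely in level. Scn2a had 62.5 TPM, Scn1a 20.6 TPM, Scn3a, a channel most abundant before birth, 9.32 TPM, Scn9a, a channel of sensory and hypothalamic neurons, 0.912 TPM, and Scn7a, a sodium-level sensor of glia, 0.649 TPM.

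Promoter sequence was available for 26 of the 36 genes, as 36 windows of the 250 bases before an annotated start (RefSeq, GRCm38.p6). Of the 5 genes called in forebrain below, Hcn2 and Cacnb4 have windows, and these are shown because their RNA differed between groups. The Cacnb4 window is the most upstream of 3, and it lies inside the annotated span of the gene (chr2:52428320-52676609). Capitals mark the GC box GGGCGG on either strand, and sequences run 5′ to 3′ on the gene's own strand.
Hcn2, chr10:79716384-79716633, plus strand: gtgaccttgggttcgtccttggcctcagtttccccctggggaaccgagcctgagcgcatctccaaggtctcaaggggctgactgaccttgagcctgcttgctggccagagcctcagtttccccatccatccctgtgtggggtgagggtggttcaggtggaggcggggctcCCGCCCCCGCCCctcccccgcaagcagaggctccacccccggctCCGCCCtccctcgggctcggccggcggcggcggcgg
Cacnb4, chr2:52676144-52676393, minus strand: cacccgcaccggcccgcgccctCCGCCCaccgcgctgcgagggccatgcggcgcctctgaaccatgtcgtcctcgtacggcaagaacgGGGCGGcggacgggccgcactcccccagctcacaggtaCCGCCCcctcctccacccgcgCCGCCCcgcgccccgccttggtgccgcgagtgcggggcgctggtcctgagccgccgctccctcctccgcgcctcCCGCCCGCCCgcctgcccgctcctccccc
The Hcn2 window was 70.4% G and C with 3 GC boxes and the Cacnb4 window 79.6% with 6, against a median of 52.4% G and C over all windows. The other 2 Cacnb4 windows held none. GC boxes were found in 15 of the 36 channel gene windows (41.7%) and in 32.7% of all 32851 windows. The letters TATAAA were in 5.56% of channel gene windows (Scn2a, Cacna1d) and 12.4% of all windows, and TGATGNAA, a core of the amino acid response element, in 5.56% (Scn9a, Cacna1c) and 3.45%. Neither the E box CACGTG (6.02% of all windows) nor the cAMP response element TGACGTCA (1.55%) was present in these 36 windows. Both strands were searched for each motif, and matches are descriptions of the letters in these windows.

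The first comparison set B6N n-Tr20 -/- against B6N forebrain and asks what loss of n-Tr20 does on the wild-type background. Cacnb4 was the single channel gene called. It rose 1.11-fold, and 1 of 33 tested channel genes called compares with 1.91% of all 25151 genes (1.11% higher, 0.807% lower). Its RNA level was 289.6, 294, 285 and 283 CPM in n-Tr20 -/- forebrains, against 257, 245, 261 and 272 CPM in B6N forebrains. Every n-Tr20 -/- library was above every B6N library, with means of 288 ± 5.07 CPM and 259 ± 11.01 CPM (SD, n = 4 each). The fitted log2 difference was 0.15 ± 0.04 (SE, edgeR adjusted p = 0.0181). The deposited TPM, which allow for transcript length, averaged 43.2 ± 2.89 in n-Tr20 -/- forebrains and 42.5 ± 5.04 in B6N forebrains (SD, n = 4 each). With a length offset the log2 difference of Cacnb4 was 0.07 (edgeR adjusted p = 0.717), and the call also ended without any 1 of B6N libraries 1 and 2 and n-Tr20 -/- libraries 1 and 2. The transcript Cacnb4-202 made up 52.8% of its estimated counts in n-Tr20 -/- and 52.1% in B6N forebrains.

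Neither Cacna1g nor Hcn2 was called. Cacna1g had 54.5, 51.9, 55.0 and 49.6 CPM in n-Tr20 -/- forebrains, against 53.8, 61.7, 57.2 and 55.2 CPM in B6N forebrains, with a log2 difference of -0.11 ± 0.05 (SE, edgeR adjusted p = 0.246). Hcn2 had 44.8, 43.2, 46.5 and 42.3 CPM in n-Tr20 -/- forebrains, against 44.2, 48.0, 42.9 and 41.5 CPM in B6N forebrains. Both genes overlapped between the groups, and the Hcn2 log2 difference was -0.00 ± 0.05 (SE, edgeR adjusted p = 0.997).

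Across the 33 genes the B6N n-Tr20 -/- minus B6N median log2 difference was 0.01, against -0.00 over all genes, and 18 were positive. By family, 6 of 7 sodium pore genes were positive (median 0.04) and 3 of 4 sodium beta genes negative (median -0.08). At an unadjusted p under 0.05 there were 6 channel genes (3 higher, 3 lower), against 12.7% of all genes. DESeq2 called 2 channel genes, Cacnb4 among them (adjusted p = 0.00263), against 2.22% of all genes. Of 14 tested partners of sodium channels, Ank2, an ankyrin that anchors membrane channels, rose (0.12 ± 0.03 SE, edgeR adjusted p = 0.0479). Of 21 tested genes listed as calcium channel partners, Rimbp3 rose (0.50 ± 0.13 SE, edgeR adjusted p = 0.0280). A link of Rimbp3 to these channels in forebrain was not tested. None of 5 HCN partner genes was called. Interneuron markers moved beside these values: 4 of 12 (Gad1, Reln, Ndnf and Htr3a) fell, and their summed level was 689 to 713 CPM in n-Tr20 -/- and 737 to 806 CPM in B6N forebrains. Of 17 tested thalamus markers 3 were positive (median -0.13) and none was called. The part of these markers in the channel gene values was not tested.

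**Figure D2:**
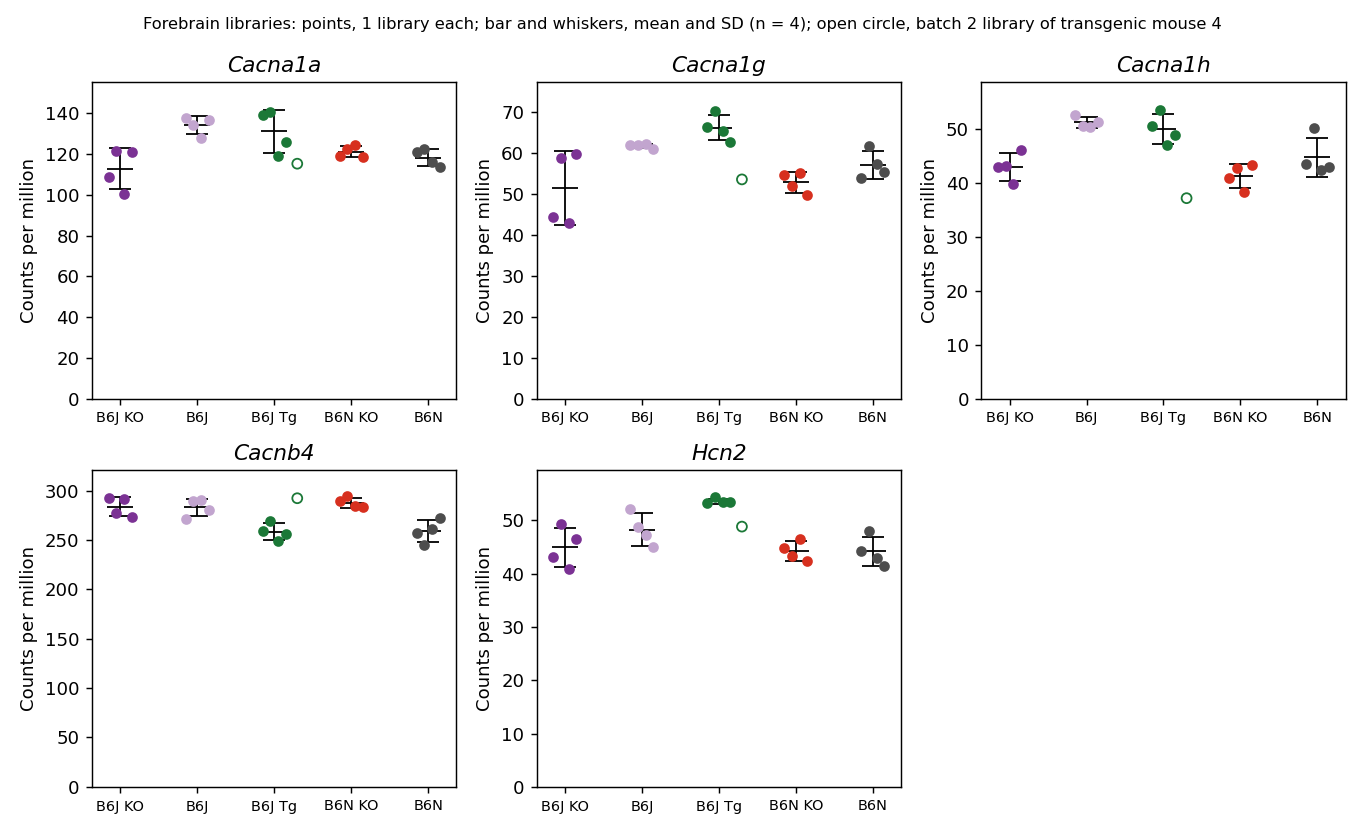
CPM of 5 channel genes in each forebrain library by group; points are libraries, the bar and whiskers the mean and SD (n = 4), and the open circle is the batch 2 library of transgenic sample 4. Cacnb4 lies higher in the 4 B6N n-Tr20 -/- libraries (283 to 294 CPM) than in the 4 B6N libraries (245 to 272 CPM), and Hcn2 is above 53 CPM in the 4 batch 1 transgenic libraries alone.

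The second comparison set B6J, with hypomorphic n-Tr20, against B6J Tg, in which the transgene supplies the B6N n-Tr20. No channel gene was called by edgeR (0.250% of all genes were). DESeq2 called 1, Cacnb4 (0.13, adjusted p = 0.0386), against 0.624% of all genes. With an unadjusted p under 0.05 there were 6 channel genes, 3 in each direction, against 10.3% of all genes. Cacnb4 had 272, 289.6, 290.3 and 280.4 CPM in B6J forebrains, against 259, 269, 248 and 256 CPM in transgenic forebrains, with no overlap and a log2 difference of 0.13 ± 0.04 (SE, edgeR adjusted p = 0.127).

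Hcn2 and Cacna1g were lower in B6J than in B6J Tg without passing the test. Hcn2 had 52.2, 48.7, 47.2 and 45.0 CPM in B6J forebrains, against 53.1, 54.3, 53.4 and 53.3 CPM in transgenic forebrains, a log2 difference of -0.15 ± 0.05 (SE, edgeR adjusted p = 0.233). Cacna1g had 61.8, 61.8, 62.1 and 61.0 CPM in B6J forebrains, against 66.1, 70.0, 65.3 and 62.7 CPM in transgenic forebrains, a log2 difference of -0.10 ± 0.05 (SE, adjusted p = 0.448). Neither gene's libraries overlapped between the groups. The thalamus markers ran the same way: all 17 tested had negative differences (median -0.40), none was called, and their sum was 544 to 677 CPM in B6J and 552 to 822 CPM in transgenic forebrains. Their part in the values of Hcn2 and Cacna1g was not tested.

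The furthest of the 33 genes between B6J and B6J Tg was Scn9a. It had 8.996, 6.77, 7.62 and 7.71 CPM in B6J forebrains, against 8.53, 8.52, 11.4 and 13.3 CPM in transgenic forebrains. The groups overlapped, the transgenic libraries were spread widely, and the log2 difference was -0.42 ± 0.13 (SE, edgeR adjusted p = 0.230). The median over the channel genes was 0.02 and over all genes -0.00, with all 4 calcium beta genes positive (median 0.12). None of the 14 sodium, 21 calcium and 5 HCN partners was called.

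The B6N n-Tr20 -/- minus B6N difference was also set against the B6J minus B6J Tg difference, which asks whether full loss on one background and the hypomorph on the other moved channel genes unequally. No channel gene was called by edgeR or DESeq2 (0.0596% and 0.199% of all genes were), and 4 had an unadjusted p under 0.05, against 8.19% of all genes. Scn9a was furthest, at 0.45 ± 0.18 (SE, edgeR adjusted p = 0.528). Hypothalamus markers had 7 of 9 positive (median 0.70) with none called, and their part in this value was not tested. Hcn2 differed by 0.15 ± 0.07 (SE, adjusted p = 0.595) and Cacna1g by -0.02 ± 0.06 (SE, adjusted p = 0.973). For Cacnb4 the log2 differences were 0.15 in n-Tr20 -/- minus B6N and 0.13 in B6J minus B6J Tg, and the test of their difference gave 0.02 ± 0.05 (SE, adjusted p = 0.957).

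The third comparison set B6J against B6N. It shares the B6N samples with the first comparison and the B6J samples with the second. Cacna1a and Cacna1h rose, so 2 of 33 channel genes were called, against 1.73% of all genes (1.21% higher, 0.513% lower). Cacna1a, the P/Q-type channel of presynaptic terminals, had 138, 134, 128 and 137 CPM in B6J forebrains, against 121, 122, 116 and 114 CPM in B6N forebrains. The groups did not overlap, and the gene was 1.14-fold higher (log2 0.18 ± 0.04 SE, edgeR adjusted p = 0.0234). Cacna1h, a T-type channel of low voltage threshold, had 52.7, 50.6, 50.5 and 51.4 CPM in B6J forebrains, against 43.5, 50.2, 42.5 and 43.1 CPM in B6N forebrains. B6N library 2 stood apart from its group and came close to the B6J values, and the gene was 1.15-fold higher (log2 0.20 ± 0.05 SE, edgeR adjusted p = 0.0407). Leaving out single libraries ended the Cacna1h call for 7 of 8 libraries, all but B6N library 2, and the Cacna1a call for 5 of 8 (B6N libraries 3 and 4, B6J libraries 1, 2 and 4). With a length offset the log2 differences were 0.19 for Cacna1a (edgeR adjusted p = 0.127) and 0.18 for Cacna1h (adjusted p = 0.645), and with protein-coding transcripts alone neither was called.

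Most channel genes had positive B6J minus B6N differences: 26 of 33, with a median of 0.07 against 0.00 over all genes. Calcium channel pore genes had a median of 0.11 with 9 of 10 positive, and all 4 HCN genes were positive (median 0.12). Unadjusted p was under 0.05 for 12 channel genes (11 higher, 1 lower), against 12.8% of all genes. Hcn2 differed by 0.13 ± 0.05 (SE, edgeR adjusted p = 0.195) and Cacna1g by 0.12 ± 0.05 (SE, adjusted p = 0.231). DESeq2 called 4 genes, against 2.32% of all genes. It added Cacnb4 (0.13, DESeq2 adjusted p = 0.0200) and the T-type gene Cacna1i (0.29, DESeq2 adjusted p = 0.00547). Cacna1i had 84.5, 84.8, 86.2 and 88.7 CPM in B6J forebrains, against 70.5, 72.1, 68.7 and 69.65 CPM in B6N forebrains, with no overlap. Its transgenic libraries were split, at 91.1, 86.1, 66.55 and 69.2 CPM in batch 1. Of the sodium partners Ank3, the ankyrin of the axon initial segment, rose (0.22 ± 0.04 SE, edgeR adjusted p = 0.00335). So did Nedd4l, a ubiquitin ligase that removes channels from the membrane (0.15 ± 0.04 SE, edgeR adjusted p = 0.0436). Of the calcium partners Cacng2, the auxiliary AMPA receptor subunit stargazin, rose (0.28 ± 0.05 SE, edgeR adjusted p = 0.00289). Striatum markers were higher too: 4 of 14 (Drd1, Drd2, Tac1, Rarb) rose, with sums of 1208 to 1358 CPM in B6J and 1037 to 1108 CPM in B6N forebrains. Of 10 meninges markers 2 fell and none was positive (median -0.43; sums of 74.5 to 106.3 CPM in B6J and 106.7 to 135 CPM in B6N forebrains). All 12 oligodendrocyte markers were positive (median 0.11) with none called. Of 17 tested thalamus markers 4 were positive (median -0.1) and none was called, while Hcn2 and Cacna1g had positive differences. The part of these in the channel gene values was not tested.

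The fourth comparison set B6J Tg against B6N, a pair in which both carry the B6N form of n-Tr20 and the substrain differs. Hcn2 and Cacna1g rose, so 2 of 33 channel genes were called, against 0.366% of all genes (0.270% higher, 0.0954% lower). Hcn2 had 53.1, 54.3, 53.4 and 53.3 CPM in transgenic forebrains, against 44.2, 48.0, 42.9 and 41.5 CPM in B6N forebrains. The transgenic libraries lay closer together than in any other forebrain group and above every B6N library, with means of 53.5 ± 0.513 CPM and 44.1 ± 2.79 CPM (SD, n = 4 each). Hcn2 was 1.21-fold higher (log2 0.28 ± 0.05 SE, edgeR adjusted p = 0.00195). Its transcript Hcn2-202 held 98.9% of the estimated counts in transgenic and 98.7% in B6N forebrains.

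Cacna1g had 66.1, 70.0, 65.3 and 62.7 CPM in transgenic forebrains, against 53.8, 61.7, 57.2 and 55.2 CPM in B6N forebrains. The groups did not overlap, although transgenic library 4 and B6N library 2 came close, and Cacna1g was 1.16-fold higher (log2 0.21 ± 0.04 SE, edgeR adjusted p = 0.0167). Hcn2 was called without each of the 8 libraries in turn. The Cacna1g call ended without B6N library 1, 3 or 4 or transgenic library 2. With a length offset the log2 differences were 0.26 for Hcn2 (edgeR adjusted p = 0.0518) and 0.24 for Cacna1g (adjusted p = 0.183). In deposited TPM, Hcn2 averaged 7.25 ± 0.434 in transgenic and 6.51 ± 0.224 in B6N forebrains, and Cacna1g 6.70 ± 0.623 and 6.07 ± 0.231 in the same groups (SD, n = 4 each).

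In this comparison thalamus markers moved beside Hcn2 and Cacna1g, both of which are abundant in thalamus. In B6J minus B6N they did not, with 4 of 17 positive (median -0.1). Of 17 tested, 16 had positive B6J Tg minus B6N differences (median 0.31) and none was called. Their sum was 552, 709, 822 and 715 CPM in transgenic libraries 1 to 4, against 606, 662, 631 and 543 CPM in B6N libraries. Transgenic library 1 was thus below B6N libraries 1, 2 and 3 for these markers, though above every B6N library for Hcn2 and Cacna1g. Of 12 interneuron markers 2 rose (Sst by 0.22 and Gad1 by 0.20 on the log2 scale), with sums of 804 to 836 CPM in transgenic and 737 to 806 CPM in B6N libraries. All 12 oligodendrocyte markers were positive (median 0.18) and none was called. The part of these in the called differences was not tested. All 10 calcium pore genes had positive differences (median 0.15), 11 channel genes had an unadjusted p under 0.05 (9 higher, 2 lower; 8.87% of all genes), and the channel gene median was 0.07 against 0.00 over all genes. Ank3 rose here as well (0.20 ± 0.04 SE, edgeR adjusted p = 0.0246), and it was the single partner gene called. DESeq2 called 3 channel genes, adding Cacna2d2 (0.34, adjusted p = 0.0395), against 0.533% of all genes.

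**Figure D3:**
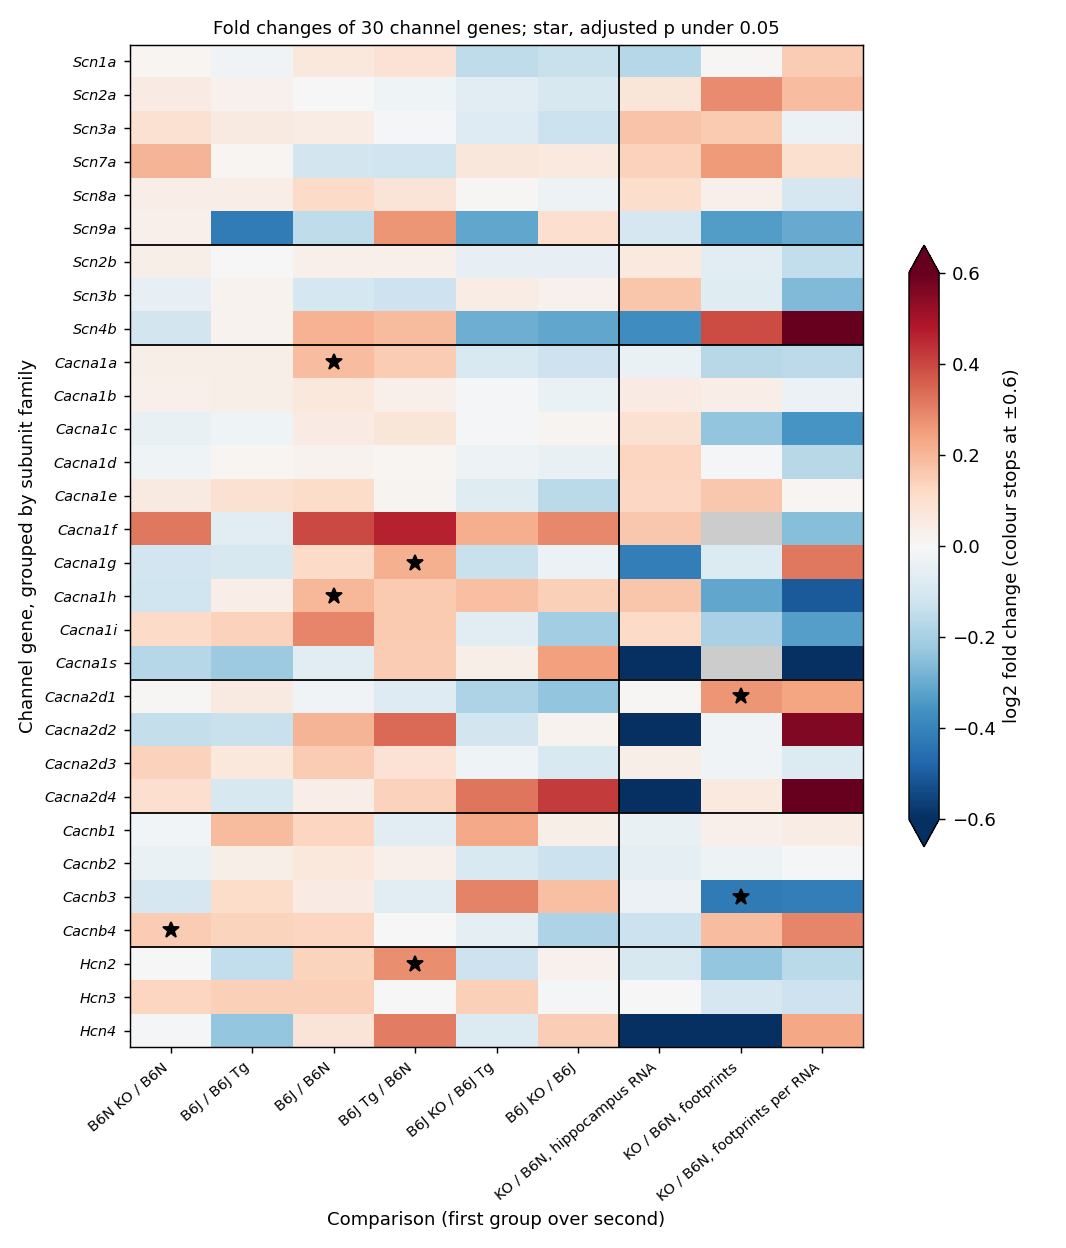
Log2 fold change of 30 tested channel genes (rows, by family) in 9 comparisons (columns, first group over second), in colour that stops at 0.6 in size; stars mark an adjusted p under 0.05 and grey marks a gene not tested in footprints. The 7 stars are Cacnb4 in B6N n-Tr20 -/-, Cacna1a and Cacna1h in B6J, Hcn2 and Cacna1g in B6J Tg, and Cacna2d1 and Cacnb3 in footprints.

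B6J n-Tr20 -/- forebrain was compared with B6J Tg and with B6J forebrain. The n-Tr20 -/- libraries are all of batch 2, and the batch difference rests on the paired libraries of transgenic sample 4 alone. These 2 libraries of 1 sample shared a coefficient of their own in the fit. The contrast with B6J Tg weighted the transgenic samples equally. No channel gene was called by edgeR or DESeq2 in either comparison. Over all genes, edgeR called 0.738% against B6J Tg and 0.106% against B6J, and DESeq2 1.81% and 0.514%. Unadjusted p was under 0.05 for 2 channel genes against B6J Tg (11.6% of all genes) and for 3 against B6J (8.02%).

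Hcn2 had 43.2, 49.3, 40.9 and 46.4 CPM in B6J n-Tr20 -/- forebrains, against 48.8 CPM in the batch 2 library of transgenic sample 4 and 53.1 to 54.3 CPM in the batch 1 transgenic libraries. Cacna1g had 44.3, 58.6, 42.9 and 59.7 CPM in B6J n-Tr20 -/- forebrains, against 53.5 CPM in that batch 2 library and 62.7 to 70.0 CPM in batch 1. The n-Tr20 -/- libraries thus lay on both sides of the transgenic library of their own batch. With the batch term the log2 differences from B6J Tg were -0.12 ± 0.10 for Hcn2 (SE, edgeR adjusted p = 0.723) and -0.13 ± 0.17 for Cacna1g (SE, adjusted p = 0.839). From B6J they were 0.02 ± 0.12 (SE, adjusted p = 0.985) and -0.04 ± 0.19 (SE, adjusted p = 0.987).

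Cacna2d4, an alpha2delta subunit of retina, was furthest in both. It had 3.41, 3.13, 3.22 and 4.62 CPM in B6J n-Tr20 -/- forebrains, against 3.27 CPM in the batch 2 library of transgenic sample 4 and 6.08 CPM in its batch 1 library. Protein-coding transcripts made up on average 58.9% of its estimated counts in B6J n-Tr20 -/-, 41.0% in B6J Tg and 40.4% in B6J forebrains. The fitted difference was positive, at 0.32 ± 0.24 from B6J Tg (SE, edgeR adjusted p = 0.665) and 0.42 ± 0.27 from B6J (SE, adjusted p = 0.747), although 3 of the 4 n-Tr20 -/- values lie below every B6J library (4.18 to 5.95 CPM). The sign turns on that pair of libraries of transgenic sample 4. Without the batch term 11 channel genes were called against B6J Tg, Hcn2 (-0.24) and Cacna1g (-0.33) among them, and 12 against B6J, so batch and genotype can be told apart only as far as the pair allows.

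The B6J n-Tr20 -/- minus B6J Tg difference was set against the B6N n-Tr20 -/- minus B6N difference to ask whether loss acts alike on both backgrounds. No channel gene was called by edgeR or DESeq2 (0.243% and 0.989% of all genes were), and 4 had an unadjusted p under 0.05, against 10.1% of all genes. Cacnb3 was furthest, at 0.40 ± 0.14 (SE, edgeR adjusted p = 0.263), Hcn2 differed by -0.13 ± 0.12 (SE, adjusted p = 0.782) and Cacna1g by -0.02 ± 0.19 (SE, adjusted p = 0.988). Cacnb3 had 96.3, 99.7, 83.2 and 87.2 CPM in B6J n-Tr20 -/- forebrains, against 70.0 CPM in the batch 2 library of transgenic sample 4 and 93.7 CPM in its batch 1 library. In B6N it had 94.0 to 105 CPM in n-Tr20 -/- and 99.4 to 111 CPM in control forebrains.

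Other measures moved with the B6J n-Tr20 -/- libraries. Choroid plexus markers summed to 427 to 603 CPM in them, against 23.98 to 80.9 CPM in B6J Tg and 19.2 to 516 CPM in B6J. Xist, a female transcript, was at 2.05 to 369 CPM in them (median 342 CPM) and at most 1.75 CPM in the other forebrain groups. Ddx3y, a male transcript, was at 0.148 to 71.6 CPM in them (median 0.673 CPM) and 49.4 to 64.6 CPM in the other groups. The other forebrain groups thus had the male pattern, and most of the B6J n-Tr20 -/- libraries the female pattern. Interneuron markers summed to 681 to 726 CPM in them, against 804 to 836 CPM in batch 1 and 829.2 CPM in the batch 2 library of B6J Tg, and 783 to 873 CPM in B6J. Oligodendrocyte markers were all negative against B6J Tg (0 of 12 positive, median -0.37), and none of either list was called. The part of these in the channel gene values was not tested, apart from a fit with a term for sex.

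In the hippocampus, B6N n-Tr20 -/- was set against B6N in poly(A) RNA, in footprints and in their ratio, to ask whether loss of the transfer RNA changes how channel RNAs are translated. In RNA no channel gene was called by edgeR (0.0413% of all genes were). DESeq2 called 1, Cacna2d2, another target of gabapentin (-0.60, adjusted p = 0.0152), against 0.713% of all genes. Cacna2d2 had 29.4, 20.8 and 23.8 CPM in n-Tr20 -/- hippocampi, against 37.6, 44.0 and 30.8 CPM in B6N hippocampi, with no overlap and an edgeR adjusted p of 0.450. Interneuron markers were lower in the same libraries, with sums of 819 to 882 CPM in n-Tr20 -/- and 1004 to 1066 CPM in B6N hippocampi, a median log2 difference of -0.32 and 1 of 12 (Ndnf) called. All 12 oligodendrocyte markers (median -0.38), all 17 tested thalamus markers (median -0.92) and all 10 microglia markers (median -0.13) were negative with none called. All 12 choroid plexus markers were positive (median 0.79) with none called. Their sums were 91.6 to 4338 CPM in n-Tr20 -/- and 121 to 2935 CPM in B6N hippocampi. Unadjusted p was under 0.05 for 5 channel genes, against 7.94% of all genes, and the median was -0.03 against 0.00 over all genes.

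Of the channel genes named here, Hcn4 was furthest in hippocampus RNA, with 2.45, 2.12 and 2.19 CPM in n-Tr20 -/- and 2.61, 6.84 and 3.08 CPM in B6N hippocampi. All 3 n-Tr20 -/- libraries were below the B6N libraries, of which library 2 stood apart, and the log2 difference was -0.89 ± 0.36 (SE, edgeR adjusted p = 0.605). Cacna1g had 98.4, 49.8 and 61.3 CPM in n-Tr20 -/- hippocampi, against 88.6, 101 and 90.0 CPM in B6N hippocampi. One n-Tr20 -/- library was as high as the B6N libraries, and the log2 difference was -0.41 ± 0.27 (SE, adjusted p = 0.763), or -0.75 to -0.22 when single libraries were left out. Hcn2 had 92.5, 105 and 90.5 CPM in n-Tr20 -/- hippocampi, against 99.7, 108 and 100.4 CPM in B6N hippocampi, a log2 difference of -0.10 ± 0.07 (SE, adjusted p = 0.774). B6N library 2 stood apart for thalamus markers, whose sum was 483 to 520 CPM in the n-Tr20 -/- libraries, against 534, 1018 and 532 CPM in B6N libraries 1 to 3. It also held the highest Cacna2d4 (5.09 CPM) and Hcn4 (6.84 CPM) of the 6 libraries. Xist was at 1243 CPM in n-Tr20 -/- library 1 and at most 2.31 CPM in the other 5. The part of these in the values above was not tested.

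By edgeR, hippocampal calls came in footprints alone. Cacnb3 fell and Cacna2d1 rose in n-Tr20 -/- hippocampi, and 3 of 31 channel genes were called in all (1 higher, 2 lower), against 5.35% of all 13227 genes (2.19% higher, 3.16% lower). Cacnb3, a beta subunit of N- and L-type channels, had 54.8, 58.2 and 61.3 CPM in n-Tr20 -/- hippocampi, against 71.0, 81.8 and 80.2 CPM in B6N hippocampi, a log2 difference of -0.42 ± 0.10 (SE, edgeR adjusted p = 0.0286). It was 1.34-fold lower, and the groups did not overlap. Cacna2d1 had 468, 471 and 462 CPM in n-Tr20 -/- hippocampi, against 390.0, 387 and 388 CPM in B6N hippocampi. Its libraries were very close within each group, and it was 1.20-fold higher (log2 0.27 ± 0.07 SE, edgeR adjusted p = 0.0337). All 3 calls ended without B6N library 2 or 3 or n-Tr20 -/- library 2. Those of Cacnb3 and Cacna2d1 also ended without n-Tr20 -/- library 1, and that of Cacna2d1 without n-Tr20 -/- library 3.

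The RNA of these genes overlapped between the groups. Cacnb3 RNA was 186, 189.5 and 162 CPM in n-Tr20 -/- hippocampi, against 200, 161 and 189 CPM in B6N hippocampi. Cacna2d1 RNA was 228, 209 and 219.8 CPM in n-Tr20 -/- hippocampi, against 198, 231 and 226 CPM in B6N hippocampi. Whether footprints moved apart from RNA is the test of their ratio, below.

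**Figure D4:**
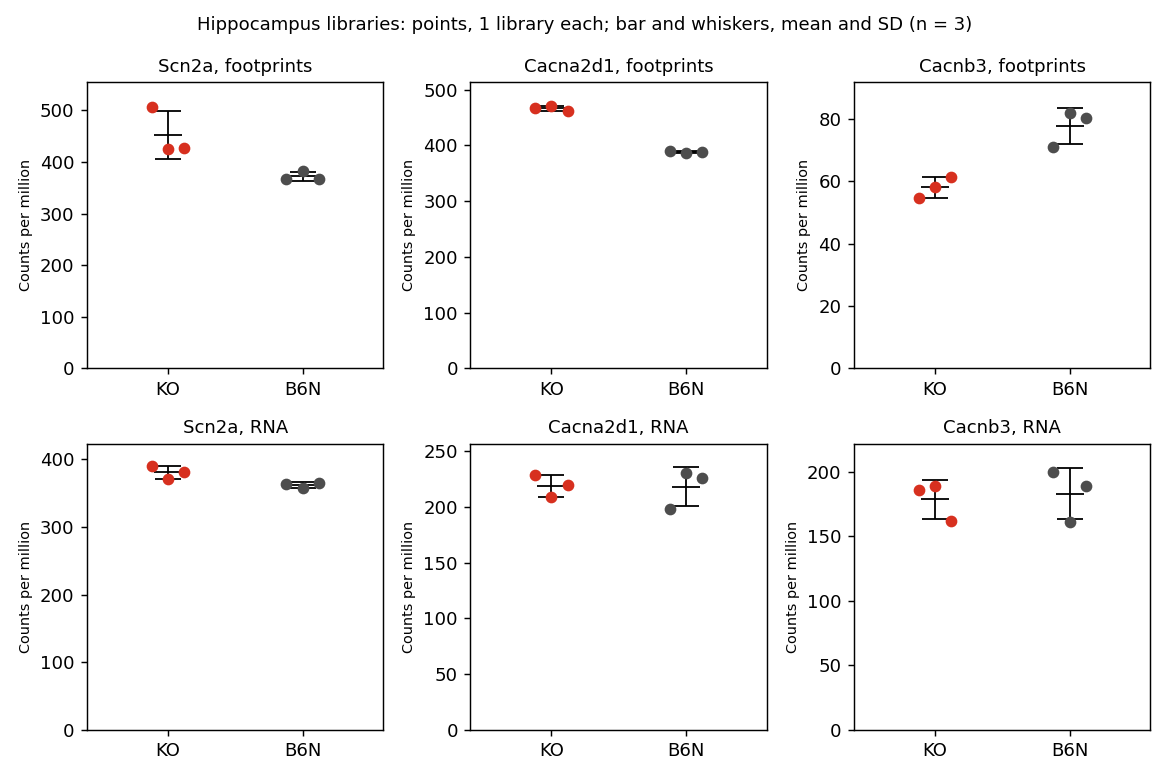
CPM of 3 channel genes in hippocampus footprints (top row) and RNA (bottom row) by library; points are libraries, the bar and whiskers the mean and SD (n = 3). Footprints of Cacna2d1 and Cacnb3 do not overlap between n-Tr20 -/- and B6N (for Cacna2d1 462 to 471 CPM and 387 to 390.0 CPM), while their RNA does.

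Scn2a footprints came close to a call, with 506, 425 and 427 CPM in n-Tr20 -/- hippocampi, against 367, 383 and 368 CPM in B6N hippocampi (log2 0.28 ± 0.08 SE, edgeR adjusted p = 0.0564). DESeq2 called 4 channel genes, Scn2a among them, against 8.17% of all genes. Hcn2 footprints were 49.2, 42.5 and 44.6 CPM in n-Tr20 -/- hippocampi, against 57.5, 43.9 and 59.1 CPM in B6N hippocampi, a log2 difference of -0.23 ± 0.13 (SE, adjusted p = 0.303). Cacna1g footprints were few, with 25.7, 17.9 and 18.8 CPM in n-Tr20 -/- hippocampi, against 16.3, 29.99 and 20.6 CPM in B6N hippocampi, a log2 difference of -0.08 ± 0.22 (SE, adjusted p = 0.863). Both overlapped between the groups. Over the 31 genes the median was -0.02, against 0.00 over all genes. Sodium pore genes had a median of 0.16 with 6 of 7 positive, and 2 of 8 calcium pore genes were positive. An unadjusted p under 0.05 was found for 6 of the 31 channel genes (2 higher, 4 lower), against 22.0% of all genes.

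Among footprint partners, Nalcn, the sodium leak channel, rose (0.33 ± 0.09 SE, edgeR adjusted p = 0.0436; 1 of 14 sodium partners), and Cacng2 fell (-0.70 ± 0.18 SE, adjusted p = 0.0435; 1 of 17 calcium partners). Markers of other regions and cells moved in the same footprint libraries. Of 13 striatum markers 7 rose, with a median of 1.05 on the log2 scale, Drd1, a dopamine receptor, among them (1.82 ± 0.34 SE, edgeR adjusted p = 0.0183), and their sum was 338 to 564 CPM in n-Tr20 -/- and 246 to 292 CPM in B6N libraries. Of 12 interneuron markers 3 (Sst, Pvalb, Htr3a) fell. Of 10 microglia markers 4 fell (sums of 592 to 613 CPM in n-Tr20 -/- and 665 to 789 CPM in B6N libraries), as did 2 of 9 astrocyte markers (3848 to 4133 CPM in n-Tr20 -/- and 4216 to 4716 CPM in B6N libraries), 2 of 12 oligodendrocyte markers and 1 of 17 thalamus markers. Choroid plexus markers summed to 8268 to 18990 CPM in n-Tr20 -/- and 6167 to 13540 CPM in B6N footprints. All 10 meninges markers (median 0.53) and all 7 endothelium markers (median 0.42) were positive with none called. In hippocampus RNA the striatum sums were 362 to 416 CPM in n-Tr20 -/- and 368 to 431 CPM in B6N libraries. The part of these in the 3 footprint calls was not tested.

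The ratio of footprints to RNA, tested in 1 model over the 12 hippocampus libraries, gave no call for any of the 33 channel genes, nor for any of the 15202 genes fitted (0% by edgeR). Unadjusted p was under 0.05 for 8 channel genes (3 higher, 5 lower), against 14.8% of all genes. DESeq2 called 1, Cacna1c, an L-type channel of dendrites and heart (-0.36, adjusted p = 0.0363), against 3.25% of all genes. Cacnb3 and Cacna2d1 had ratio differences in the same direction as their footprints, at -0.42 ± 0.13 for Cacnb3 (SE, edgeR adjusted p = 0.174) and 0.24 ± 0.10 for Cacna2d1 (SE, adjusted p = 0.271). Each shares its footprints with the test of footprints alone, so this is no separate evidence. Of the channel genes named here, Cacna1s was furthest, at -0.77 ± 1.05 (SE, edgeR adjusted p = 0.792), with too few footprints to be tested in footprints alone. Hcn2 differed by -0.16 ± 0.15 (SE, adjusted p = 0.670) and Cacna1g by 0.32 ± 0.39 (SE, adjusted p = 0.762; 0.11 to 0.65 without single libraries). Calcium pore genes had a median of -0.21 with 2 of 10 positive, against a median of -0.02 over all genes. The male transcript Ddx3y was at 0.336 to 56.2 CPM in n-Tr20 -/- RNA and 45.5 to 107 CPM in n-Tr20 -/- footprint libraries. The n-Tr20 -/- samples of the 2 assays thus differed in sex make-up, and its part in the ratios was not tested.

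Most channel genes had few footprints for their RNA in both genotypes. The log2 of mean footprint CPM over mean RNA CPM had a median of -0.14 in n-Tr20 -/- and -0.17 in B6N hippocampi over 14730 genes, and 8 of 33 channel genes were above it in n-Tr20 -/- and 7 of 33 in B6N hippocampi. The alpha2delta genes Cacna2d1 (1.09 in n-Tr20 -/-, 0.83 in B6N) and Cacna2d3 (0.93 and 0.99 in the same order) and the glial gene Scn7a (1.31 and 1.18) were high. Hcn2 was at -1.08 and -0.94, Cacna1g at -1.75 and -2.06 and Cacna1f at -3.30 and -3.71. RNA reads come from whole poly(A) transcripts and footprints mainly from coding sequence, so these ratios are not efficiencies that can be compared between genes.

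**Figure D5:**
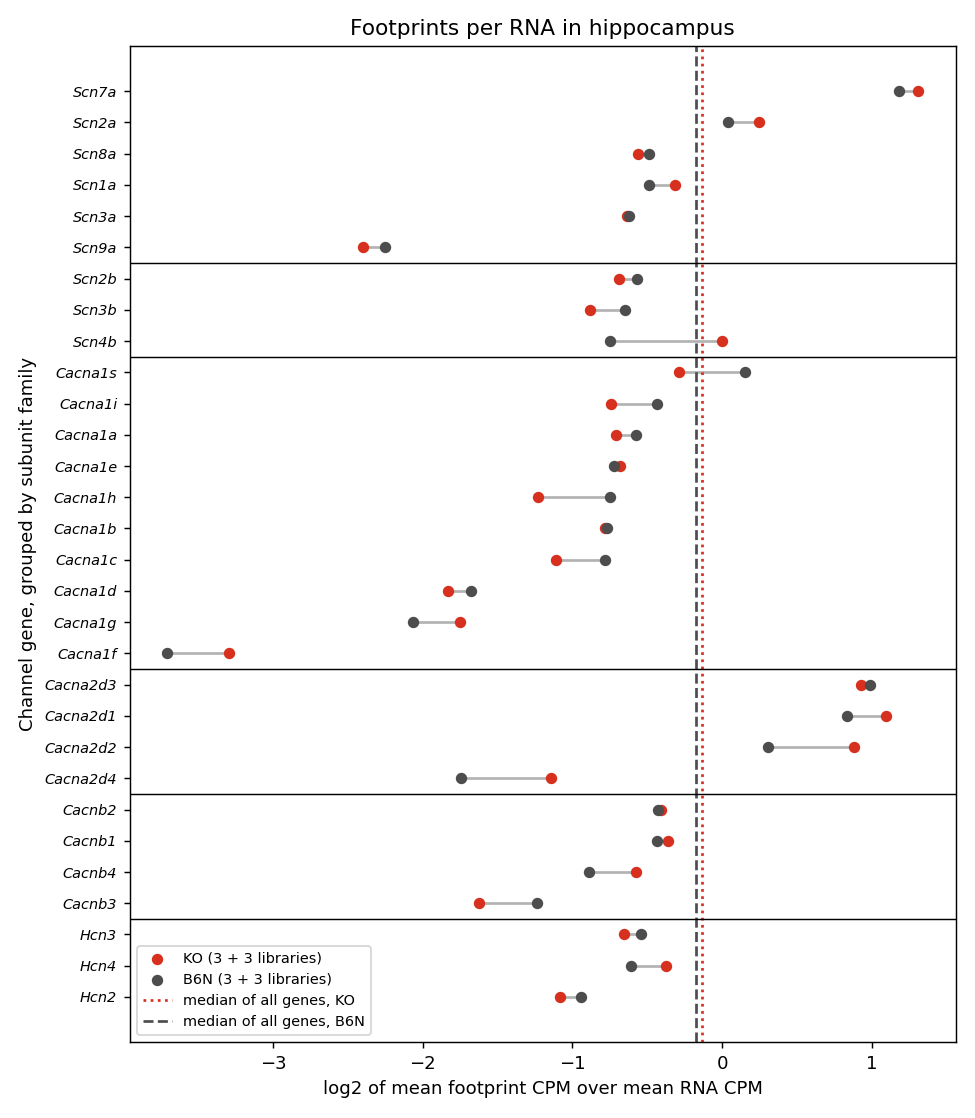
Log2 of mean footprint CPM over mean RNA CPM in hippocampus for 30 channel genes by family, in n-Tr20 -/- and B6N (3 footprint and 3 RNA libraries each); vertical lines give the median of all genes in each genotype (-0.14 and -0.17). Most channel genes lie left of both lines, and the 2 genotypes lie near each other except for a few genes such as Scn4b (-0.00 in n-Tr20 -/-, -0.75 in B6N).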

How the data were processed

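The deposited forebrain tables list an estimated count and a TPM for each transcript (kallisto 0.42.4, per the submitters' processing notes). Estimated counts were summed per gene over all transcripts and rounded, and the deposited TPM were summed per gene. The hippocampus tables hold whole read counts per gene as deposited (the submitters' processing notes name HISAT2 2.1.0, Bowtie2 2.2.3, featureCounts and mm10). Forebrain RNA was ribosome-depleted and hippocampus RNA poly(A) selected, per the labels.

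Channel genes were found by symbol. The genes, lists and tests were chosen with earlier results of these data known. Values for each library are CPM on TMM-scaled totals, without batch correction. Tests used edgeR 4.0.16 (quasi-likelihood F test, robust, minimum count 10, TMM) in R 4.3.3 over all genes, with Benjamini-Hochberg adjustment. The 16 batch 1 libraries shared 1 fit of 25151 genes (biological coefficient of variation 7.04%). All 21 forebrain libraries entered a second fit of 25481 genes with a batch term. In it the 2 libraries of transgenic sample 4 shared a coefficient of their own. Hippocampus RNA (19352 genes), footprints (13227) and both together (15202, interaction of genotype and assay) were fitted separately. Alternatives included DESeq2 1.42.0, RLE scaling, no filter, transcript length offsets, only the groups compared, terms for batch or sex, and leaving out each library. Summing protein-coding transcripts only, testing protein-coding footprint genes only, and joining the replicate block with the groups compared were chosen after seeing the data. Full values were given for called channel genes, for Hcn2 and Cacna1g throughout, and for the furthest gene where none was called; a gene close to the threshold or called by DESeq2 alone was added after its values were seen. A few channel genes are counted in the totals and not reported singly here, in text or figures. The tests were also run on simulated data, drawn with the means, library sizes and spread of the real data. No 2 libraries of a group held identical values or differed by less than sampling noise (lowest chi-square per degree of freedom 2.92 over 46 pairs).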

Additional observations from a re-analysis of the deposited data

Results flagged for a closer look

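Of 150 checks of a channel gene in a forebrain group of 4, 5 had 1 library far from the others, and chance flags about 1 in 20. Cacna2d3 was 141.6 CPM in B6J Tg library 2, against 123 to 125 CPM in the other 3. Scn7a was 6.86 CPM in B6J library 3, against 5.65 to 5.77 CPM. Scn8a was 339.9 CPM in B6N n-Tr20 -/- library 1, against 362 to 365 CPM, and Scn2b 240.2 CPM in B6N n-Tr20 -/- library 4, against 263 to 266 CPM. Cacna1h was 50.2 CPM in B6N library 2, against 42.5 to 43.5 CPM, and this library bears on its call in B6J minus B6N.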

How the results depend on the processing

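Counts of called channel genes moved with the settings as follows. In B6N n-Tr20 -/- minus B6N (1 called), RLE scaling, no filter, DESeq2, the replicate block, only the groups compared, both of these together, and protein-coding transcripts each gave 2, and the length offset 0. In B6J minus B6J Tg (0), DESeq2 gave 1. In B6J minus B6N (2), DESeq2 gave 4, only the groups compared 9, that with the replicate block 7, and the length offset and protein-coding transcripts 0. In B6J Tg minus B6N (2), the length offset gave 0, and only the groups compared and protein-coding transcripts 1. Without the batch term B6J n-Tr20 -/- gave 11 calls against B6J Tg and 12 against B6J, in place of 0, and within batch 2, where the transgenic side is 1 library assumed to vary like the n-Tr20 -/- libraries, the first gave 2 (Cacnb3 at 0.38, Scn9a at -0.68). DESeq2 gave 1 in hippocampus RNA and 1 in the footprint to RNA ratio (0 by edgeR in each). Smaller moves were 3 with DESeq2 in B6J Tg minus B6N, and 4 with DESeq2 and 4 without the filter in footprints (3 called). The cause was not tested.

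Leaving out 1 library gave 0 to 2 calls in B6N n-Tr20 -/- minus B6N, 0 to 2 in B6J minus B6N, 1 to 4 in B6J Tg minus B6N, 0 to 1 in B6J minus B6J Tg, in both differences of differences and in B6J n-Tr20 -/- minus B6J Tg, and 0 to 4 in footprints. The Cacnb4 call ended without B6N library 1 or 2 or n-Tr20 -/- library 1 or 2. All 3 footprint calls ended without B6N library 2 or 3 or n-Tr20 -/- library 2. Without n-Tr20 -/- library 1, 1 was left.

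With length offsets, log2 differences were 0.26 for Hcn2 and 0.24 for Cacna1g in B6J Tg minus B6N. Signs turned for Cacna1g with length offsets (0.25 in B6J n-Tr20 -/- minus B6J Tg, 0.29 in minus B6J, 0.32 in the difference of the knockout effects) and with a term for sex (0.085 and 0.18 against B6J Tg and B6J), and for Hcn2 in B6J n-Tr20 -/- minus B6J without the filter (-0.0017) or the batch term (-0.10). Without single libraries, values of Hcn2 spanned -0.030 to 0.041 in B6N n-Tr20 -/- minus B6N and -0.020 to 0.071 in B6J n-Tr20 -/- minus B6J. Those of Cacna1g spanned -0.12 to 0.046 in that comparison too, -0.10 to 0.065 in the difference of the knockout effects, -0.044 to 0.023 in the difference between n-Tr20 loss in B6N and the hypomorph, and -0.28 to 0.19 in footprints. Hippocampal Hcn2 kept its sign but spanned -0.17 to -0.055 in RNA, -0.35 to -0.16 in footprints and -0.30 to -0.080 in the ratio.

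Correlations of deviations between same-numbered samples ran from -0.28 to 0.12 over 36 pairs, with 2 over 0.1. The labels do not state a pairing, and low correlations in groups this small cannot settle whether there was one. With the replicate block, footprints had 2 calls in place of 3 (Cacna2d1 at 0.27 was lost), B6N n-Tr20 -/- minus B6N had 2 as above, and no other count changed. B6J n-Tr20 -/- without transgenic sample 4 was not run, since the batch difference could then not be estimated. In footprints of low genes such as Cacna1g (at most 29.99 CPM) the depth limits what can be seen.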

Other observations

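Summed over a family, the deposited TPM of channel genes were higher on average in the 4 B6J n-Tr20 -/- forebrains than in the batch 1 libraries of the other groups for all 6 families. The batch 2 library of transgenic sample 4 was above the B6J n-Tr20 -/- mean in all 6 as well. Sodium pore genes summed to a mean of 145 TPM (118 to 162 TPM) in B6J n-Tr20 -/-, against 180.3 TPM in the batch 2 transgenic library, 121 TPM in batch 1 B6J Tg and 121 TPM in B6J. HCN genes summed to a mean of 16.7 TPM (14.9 to 18.8 TPM) in B6J n-Tr20 -/-, against 20.7 TPM in the batch 2 transgenic library, 14.4 TPM in batch 1 B6J Tg and 14.1 TPM in B6J. Both sums were thus higher in the transgenic library than in every n-Tr20 -/- library of the same batch, the opposite of the direction against batch 1. These sums have no batch term.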
